A study of Homo sapiens with 19 samples.

Results

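The regions described here were bound by ERRα in BT-474 breast cancer cells whether or not the cells had been given a growth factor, and were not called as bound in SKBr3 cells under any of the same conditions. They were chosen by the peak calls themselves. Peaks of the 6 lists made from these 2 lines were merged wherever they overlapped by at least 1 bp, and a merged region was a member when it held a peak in all 3 BT-474 lists and in none of the 3 SKBr3 lists. This rule left 6517 of 82896 merged regions, a background of 7.86%, and they are called the BT-474 set below. They made up 34.4% (95% Wilson interval 33.7–35.1%) of the 18950 regions called in all 3 BT-474 lists, of which 2129 had a peak in 1 SKBr3 list, 2420 in 2 and 7884 in all 3. The 7884 regions called in all 6 lists, the common regions, and the 4465 regions called in all 3 SKBr3 lists and no BT-474 list, the SKBr3 set, served for comparison.

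Chromatin bound by ERRα was immunoprecipitated and sequenced (ChIP-seq), and 8 peak lists were made from the 19 samples. BT-474 and SKBr3 are both human breast cancer lines with an amplified ERBB2 (HER2) gene. Cells of both were starved of serum for 24 h and then given PBS as vehicle, or 100 μM (as labelled) of EGF or heregulin (HRG) for 90 min. Behind each BT-474 list stands 1 ChIP library, and the 3 lists share the input from vehicle-treated cells, while each SKBr3 list pools 2 ChIP libraries with 1 input. The remaining lists, from parental pSKBr3 cells without treatment and from lapatinib-resistant LRSKBr3 cells kept in 2 μM lapatinib, took no part in the choice of regions and also pool 2 ChIP libraries each. The lists hold no spread between cultures, so intervals cover counting error over regions only and no P value was computed. Read depth is unknown, since the lists give no tag counts.

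ERRα is an orphan nuclear receptor that drives genes of mitochondrial energy metabolism. It recognises the ERRα response element (ERRE), a single core preceded by a short extension, whereas the oestrogen receptor ERα binds a palindrome of the same core, the oestrogen response element (ERE). BT-474 cells express ERα and SKBr3 cells are classed as ERα-negative. In luminal breast cells ERα shares many of its enhancers with the forkhead factor FOXA1 and with GATA3, and AP-1 (Jun/Fos) is the classical nuclear effector of growth factor signalling. These factors were not measured here, and a match to their binding words is a description of the sequence, not a bound site.

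The sequences shown here were picked because they hold one of the words counted below, in the GREB1, SIAH2 and RARA regions outside the window used for counting, and most members hold none of the main ones. Members were ranked by their score percentile, the rank of a peak's score within its own list from 0 to 100, averaged over the 3 BT-474 lists. The next 3 sequences come from the strongest members with the ERRE, written TCAAGGTCA on one strand or the other, and with the AP-1 word, TGACTCA or TGAGTCA. The ACTR3B and SHH members share the top rank with others and come first of these in genome order. All sequences are the GRCh37 plus strand, 5′ to 3′, with 40 bases to each side of the word, and capitals mark every ERRE, half-ERRE (AAGGTCA), ERE, forkhead (TGTTTAC), AP-1 or GRHL (AACCGGTT, AACCTGTT or AACAGGTT) word on either strand, and every match to AGATAAG, the word used for the GATA factors. The half-ERRE is part of the ERRE and can also be part of an ERE.
ACTR3B (chr7:152676587-152676675): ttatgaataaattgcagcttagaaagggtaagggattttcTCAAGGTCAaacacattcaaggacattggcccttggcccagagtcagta
SHH (chr7:155660092-155660180): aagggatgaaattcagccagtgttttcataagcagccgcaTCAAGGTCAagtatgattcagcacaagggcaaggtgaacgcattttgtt
TAFA5 (chr22:49412000-49412086): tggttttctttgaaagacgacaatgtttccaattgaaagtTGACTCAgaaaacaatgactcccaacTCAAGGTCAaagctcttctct

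The ERE was sought as GGTCA and its reverse complement TGACC with 3 bases between them. The strongest member that holds it, near FUT10, is described further on without its sequence. The word is shown for the next 3 in rank, near DLG1, CENPP and IPO5, and for the regions of the oestrogen-responsive genes GREB1 and SIAH2. In the CENPP sequence the left arm of the palindrome is at the same time a half-ERRE.
DLG1 (chr3:197080047-197080139): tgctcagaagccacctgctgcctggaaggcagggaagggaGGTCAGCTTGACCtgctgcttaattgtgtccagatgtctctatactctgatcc
CENPP (chr9:95381062-95381154): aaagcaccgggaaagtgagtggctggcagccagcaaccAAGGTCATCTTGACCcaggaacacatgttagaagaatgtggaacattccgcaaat
IPO5 (chr13:98530680-98530772): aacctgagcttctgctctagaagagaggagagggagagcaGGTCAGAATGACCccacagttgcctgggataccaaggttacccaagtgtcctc
GREB1 (chr2:11672620-11672712): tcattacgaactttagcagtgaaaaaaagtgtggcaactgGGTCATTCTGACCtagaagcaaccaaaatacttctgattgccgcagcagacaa
SIAH2 (chr3:150474391-150474483): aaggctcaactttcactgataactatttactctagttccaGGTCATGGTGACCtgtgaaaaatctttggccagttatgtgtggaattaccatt

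The forkhead word is shown for the strongest members that hold it, near NPAS3 and KLHL1, and the ERRE for 2 genes whose regions are described further on, RARA and NPY1R. The KLHL1 sequence holds a half-ERRE to the left of its forkhead word.
NPAS3 (chr14:34033984-34034070): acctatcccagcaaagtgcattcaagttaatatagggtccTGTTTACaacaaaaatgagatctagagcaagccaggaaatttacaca
KLHL1 (chr13:69319840-69319926): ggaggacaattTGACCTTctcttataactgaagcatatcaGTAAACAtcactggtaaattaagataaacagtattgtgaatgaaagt
RARA (chr17:38464528-38464616): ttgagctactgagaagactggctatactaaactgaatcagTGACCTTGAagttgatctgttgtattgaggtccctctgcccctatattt
NPY1R (chr4:164263562-164263650): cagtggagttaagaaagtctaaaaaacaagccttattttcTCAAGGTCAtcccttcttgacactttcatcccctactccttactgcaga

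The ERRE was present at the centre of the members, but less often than at the common regions. Within 100 bp of the peak centre, 5.39% (interval 4.86–5.96%) of the BT-474 set carried the full word, against 10.8% (10.1–11.5%) of common regions and 6.74% (6.04–7.51%) of the SKBr3 set, a difference of -5.37 percentage points (95% Newcombe interval -6.25 to -4.49) from the common regions and of -1.36 points (-2.29 to -0.45) from the SKBr3 set. The background over all merged regions was 5.5%. In windows of the same length 2 kb to each side, 0.246% of those of the BT-474 set held the word, so the word was concentrated at the centres. The half-ERRE followed the same order, at 20.4% (19.4–21.4%) of the BT-474 set, 33.0% of common regions and 29.7% (28.4–31.1%) of the SKBr3 set, with a background of 20.2% and flanks of 3.48%. The backgrounds of both words lay within the intervals of the BT-474 set, so its shares were near those of all merged regions.

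The words of the luminal partners were more frequent in the BT-474 set as a whole. Within classes of GC content, given further on, the forkhead excess over the common regions was smaller and its intervals overlapped. GATA was lower than in the common regions in the highest GC class. The forkhead word lay at 9.56% (interval 8.87–10.3%) of the BT-474 set, 5.53% (5.05–6.06%) of common regions and 2.93% (2.48–3.47%) of the SKBr3 set, against a background of 5.47%. Its share in the flanks of the BT-474 set was 3.41%, and the excess over the common regions was 4.03 points (3.16 to 4.91). The GATA word lay at 6.31% (5.74–6.92%) of the BT-474 set, 2.99% (2.64–3.39%) of common regions and 2.15% (1.76–2.62%) of the SKBr3 set, with a background of 3.51%. The flanks held it at 3.26% in the BT-474 set, 2.65% in common regions and 2.36% in the SKBr3 set, so that the flank value lay within the interval at the centre in the last set and just inside it in the common regions.

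The ERE was rare everywhere and most frequent in the BT-474 set. It was found in the windows of 35 members, 0.537% (interval 0.386–0.746%), against 18 common regions (0.228%, 0.144–0.361%) and 5 regions of the SKBr3 set (0.112%, 0.0478–0.262%), with a background of 0.148%. The difference was 0.309 points (0.108 to 0.534) from the common regions and 0.425 points (0.213 to 0.644) from the SKBr3 set. The flanks of the BT-474 set held it at 0.0307%. Of the 35 windows, 14 also held a half-ERRE. The strongest of these members, near FUT10, had scores of 2705 on vehicle, 1458 on EGF and 3100 on HRG and no peak in the pSKBr3 or LRSKBr3 list. Over the whole length of the regions the ERE was found in 66 members (1.01%, 0.797–1.29%) and 64 common regions (0.812%, 0.636–1.04%), whose intervals overlap, and in 14 regions of the SKBr3 set (0.314%, 0.187–0.526%). Common regions are wider, with a median of 2822 bp against 2273 bp in the BT-474 set and 1634 bp in the SKBr3 set.

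**Figure D1:**
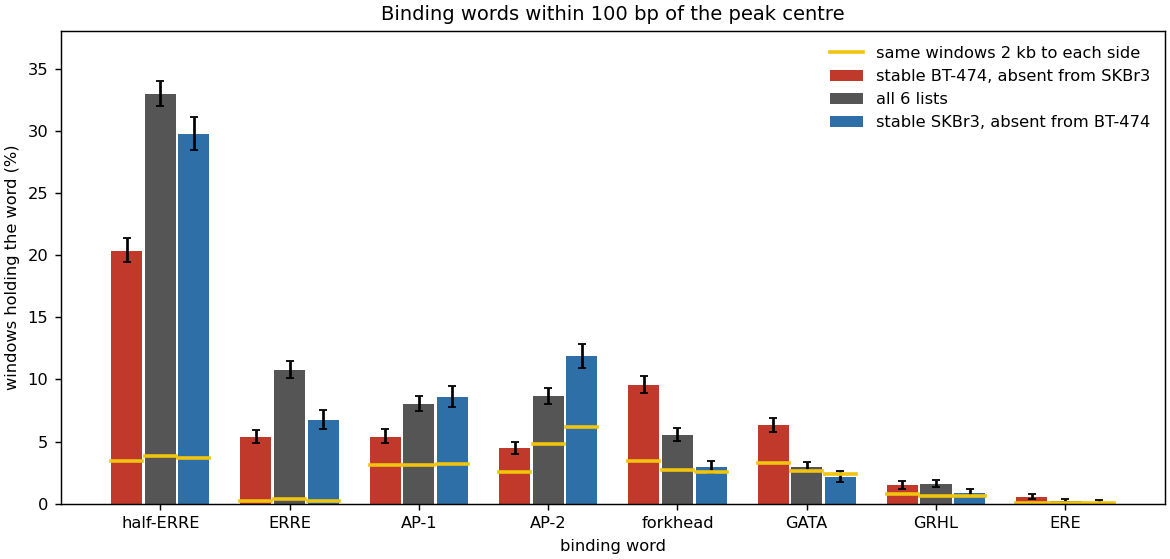
Share of windows within 100 bp of the peak centre that hold each binding word, in percent, for the BT-474 set (red), the common regions (grey) and the SKBr3 set (blue). Black bars are 95% Wilson intervals and yellow lines give the same share in windows 2 kb to each side. The red bar is the highest for forkhead, GATA and ERE and the lowest for half-ERRE, ERRE, AP-1 and AP-2, and for GRHL it lies between the others.

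AP-1 and AP-2 words were less frequent in the BT-474 set than in either compared set, and classes of GC content and strength are given further on. AP-1 was at 5.40% (interval 4.88–5.98%) of the BT-474 set, 8.03% (7.45–8.65%) of common regions and 8.58% (7.79–9.44%) of the SKBr3 set, with a background of 8.08% and flanks of the BT-474 set at 3.14%. AP-2, sought as GCCNNNGGC, was at 4.47%, 8.65% and 11.8%, with a background of 6.74%. The word of the GRHL factors, which maintain epithelial identity, was at 1.47% (1.21–1.80%) of the BT-474 set and 1.59% (1.33–1.89%) of common regions, a difference of -0.112 points with an interval from -0.513 to 0.297 that spans 0, and a background of 1.1%. TEAD (ACATTCC), RUNX (TGTGGTT), ETS (CCGGAAG) and NRF1 (GCGCATGCG) words were at 3.68%, 4.74%, 0.276% and 0.0153% of the BT-474 set and 4.53%, 3.84%, 1.66% and 0.114% of common regions, with backgrounds of 4.22%, 4.03%, 1.35% and 0.103%. In the flanks of the BT-474 set RUNX stood at 3.77% and ETS at 0.330%. None of the half-ERRE, ERE, forkhead, GATA, AP-1 and GRHL words was in the window of 4063 members (62.3%).

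Around the peak centre the words had different profiles. In bins of 100 bp, the ERRE of the BT-474 set stood at 2.59% and 2.90% in the 2 central bins and at 0.491% and 0.583% in the bins from 200 to 300 bp to either side. The forkhead word stood at 5.37% and 4.76% in the central bins and still at 2.85% and 2.88% from 200 to 300 bp, so its peak was broader. The ERE was in the central bins in 17 and 18 members and in the bins from 200 to 300 bp in 1 and 2. The windows of 26 members held both an ERRE and a forkhead word, 99 a half-ERRE and a forkhead word, and 42 a forkhead and a GATA word.

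**Figure D2:**
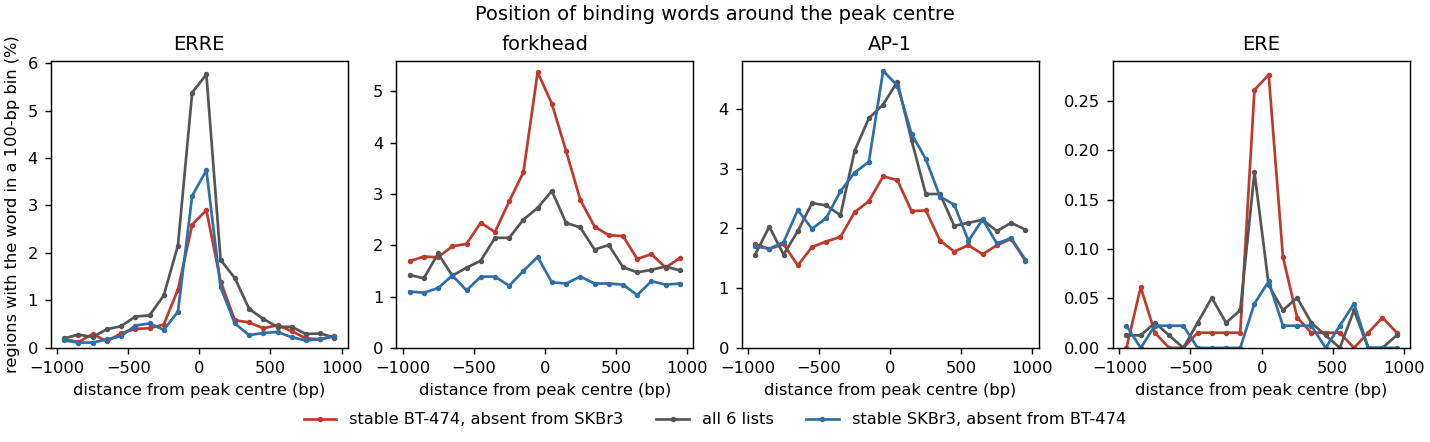
Share of regions with a word in each 100-bp bin, in percent, by distance from the peak centre in bp, for the BT-474 set (red), the common regions (grey) and the SKBr3 set (blue). Each panel has its own vertical scale from 0. The ERRE peaks in every set and highest in the common regions, while forkhead and ERE peak highest in the BT-474 set.

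The windows of the BT-474 set were poor in G and C, and the words were therefore also counted within classes of GC content. Mean GC was 38.5% ± 7.03 (SD over 6517 windows), against 46.7% ± 9.13 in common regions and 51.4% ± 9.02 in the SKBr3 set. The peaks of the 3 BT-474 lists had a mean GC of 40.3 to 42.7% and those of the 3 SKBr3 lists of 45.8 to 50.5%, so the lines differed in this measure as a whole. In windows under 36% GC the forkhead word was at 11.2% (interval 10.0–12.5%) of the BT-474 set and 8.37% (6.72–10.4%) of common regions. From 36 to 42% GC it was at 10.2% (9.02–11.6%) and 8.12% (6.91–9.53%), from 42 to 50% at 7.55% (6.28–9.05%) and 5.83% (5.01–6.78%), and from 50% at 2.68% and 2.60%. The forkhead share was thus higher in the BT-474 set in every class, by less than within the sets as a whole, and intervals overlapped in each class. The ERRE share was lower in the BT-474 set in all 4 classes, at 4.96% against 11.3%, 6.25% against 13.1%, 5.20% against 12.4% and 4.14% against 7.42%, and in none of them did the intervals overlap except the last, where they shared 6.47 to 6.52%. GATA was higher in the first 3 classes, at 6.53% against 2.94%, 6.99% against 4.78% and 6.34% against 2.99%, and lower from 50% GC, at 1.22% against 1.87%. The ERE was at 0.197% of the BT-474 set against 0.226% of common regions under 36% GC, at 0.463% against 0.299% from 36 to 42%, at 1.28% (0.812–2.02%) against 0.185% (0.0788–0.431%) from 42 to 50% and at 0.487% against 0.229% from 50%, and intervals overlapped in all classes but that from 42 to 50%. The AP-2 share was lower in the BT-474 set in the highest GC class alone. It was at 1.81% (1.36–2.41%) against 0.566% (0.242–1.32%) of common regions under 36% and 3.98% (3.24–4.89%) against 3.52% (2.74–4.52%) from 36 to 42%. It was at 7.83% (6.54–9.36%) against 6.35% (5.49–7.33%) from 42 to 50% and at 11.9% (9.14–15.4%) against 17.05% (15.7–18.5%) from 50%. AP-1 was at 4.92% against 6.22%, 5.32% against 8.42%, 6.27% against 9.37% and 5.84% against 6.995% in the 4 classes, with overlapping intervals in the lowest and the highest.

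Set against the SKBr3 set within the same GC classes, the differences also changed in size. Under 36% GC, where the SKBr3 set has 171 windows, intervals overlapped for GATA at 6.53% against 5.26% (2.79–9.70%), for forkhead at 11.2% against 5.85% (3.21–10.4%) and for the ERRE at 4.96% against 6.43% (3.63–11.2%). From 36 to 42% GATA was at 6.99% (5.99–8.14%) against 2.98% (1.81–4.85%), forkhead at 10.2% against 7.34% (5.37–9.96%) with overlapping intervals, and the ERRE at 6.25% (5.30–7.35%) against 11.9% (9.36–15.02%). From 42 to 50% GATA was at 6.34% against 3.11%, forkhead at 7.55% against 3.56% and the ERRE at 5.20% (4.16–6.49%) against 7.88% (6.54–9.46%). From 50% the GATA shares were 1.22% and 1.26%, the forkhead shares 2.68% and 1.498% and the ERRE shares 4.14% and 5.10%, with overlapping intervals.

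Peaks at the members were also counted in the pSKBr3 and LRSKBr3 lists, which come from SKBr3 cells but lie outside the rule. The compared sets hold SKBr3 peaks by choice, so higher shares there follow in part from that choice. A missing peak does not show that a region is unbound. A pSKBr3 peak overlapped 197 members, 3.02% (interval 2.63–3.47%), against 83.0% (82.1–83.8%) of common regions, 64.7% (63.3–66.1%) of the SKBr3 set and a background of 23.1% of all merged regions. An LRSKBr3 peak overlapped 677 members, 10.4% (9.67–11.2%), against 95.4% of common regions, 89.0% of the SKBr3 set and a background of 38.4%. Both lists had a peak at 117 members, pSKBr3 alone at 80 and LRSKBr3 alone at 560, which left 5760 members (88.4%) called in neither. Where a peak was called in a member it tended to be low in its list. The median score percentile was 29.7 for pSKBr3 and 28.1 for LRSKBr3, against 75.8 and 84.1 in common regions. The LRSKBr3 list is longer than the pSKBr3 list, with 39777 peaks against 22539, and the part of this in the higher LRSKBr3 share was not tested.

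**Figure D3:**
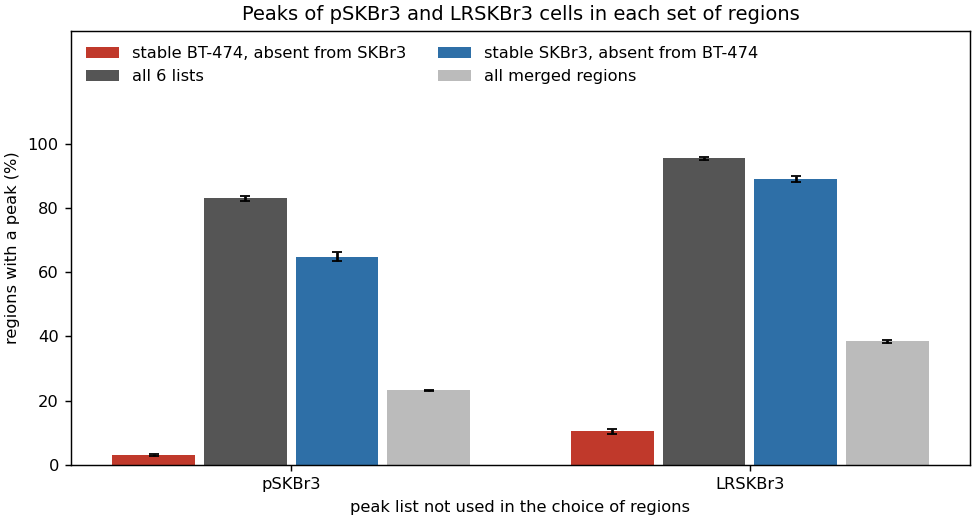
Share of regions overlapped by a peak of the pSKBr3 or the LRSKBr3 list, in percent, for the BT-474 set (red), the common regions (dark grey), the SKBr3 set (blue) and all merged regions (light grey), with 95% Wilson intervals. The red bars are at 3.02% and 10.4%, under every other bar.

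A few strong members were exceptions. The intergenic member 74624 bp from PTPN1 at chr20:49048960-49055338 had scores of 3100 on vehicle, 2466 on EGF and 3100 on HRG in BT-474 cells, and 1708 in pSKBr3 and 1741 in LRSKBr3 cells. These last values lay at percentiles 95.1 and 94.6 of their lists, although no SKBr3 list had a peak there. The intronic member of DGLUCY at chr14:91590251-91595730 had scores of 3100, 2309 and 3100 in BT-474 cells, 566 in pSKBr3 and 1232 in LRSKBr3. The promoter member of SLC9A8, which encodes a sodium/proton exchanger, had scores of 1817, 829 and 1721 in BT-474 cells and of 775 and 635 in the pSKBr3 and LRSKBr3 lists. Still stronger in BT-474 cells were members with a weak pSKBr3 peak, and those near PTPRN2, NPAS3 and KCNK1 had pSKBr3 scores of 68.7, 68.9 and 56.2, close to the lowest score of 50 that any list holds. Members of a mean percentile of 90 or more had a pSKBr3 peak in 28 of 361 cases, 7.76%, and those under 50 in 54 of 2541, 2.13% (1.63–2.76%).

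In the BT-474 lists themselves the members were moderately strong. These scores are part of what chose the members and are given as a description. The median score was 227 on vehicle, 134 on EGF and 256 on HRG, at score percentiles of 59.1, 53.9 and 66.4, and the common regions had medians of 580, 301 and 659 at percentiles of 80.5, 75.7 and 84.4. The lowest and highest scores of members were 50.01 and 3207 on vehicle, 50.01 and 3205 on EGF and 50.14 and 3230 on HRG. At percentile 90 or more in all 3 lists were 259 members, and 90 were under percentile 25 in all 3. The share of stable BT-474 regions with no SKBr3 peak went down with strength, from 59.7% (interval 54.2–64.9%) at a mean percentile of 10 to 20 and 41.3% (39.4–43.3%) at 50 to 60 to 12.1% at 90 to 100.

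Words were also counted within classes of strength. Among regions of a mean percentile under 50, the forkhead word was at 10.5% (interval 9.34–11.7%) of the BT-474 set and 4.78% (3.68–6.19%) of common regions, and the ERRE at 6.30% (5.42–7.31%) and 11.9% (10.1–13.9%). From 50 to 90 the forkhead shares were 9.18% and 5.60% and the ERRE shares 4.62% and 10.7%. At 90 or more, with 361 members, the ERRE shares were 6.65% (4.51–9.70%) and 10.3% (9.10–11.6%) and the forkhead shares 6.93% (4.73–10.0%) and 5.76% (4.87–6.82%), with overlapping intervals. AP-1 was at 4.96% (4.18–5.87%) against 7.53% (6.13–9.22%) under 50, at 5.56% (4.86–6.36%) against 8.55% (7.77–9.39%) from 50 to 90, and at 6.93% against 7.22% in the strongest class.

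**Figure D4:**
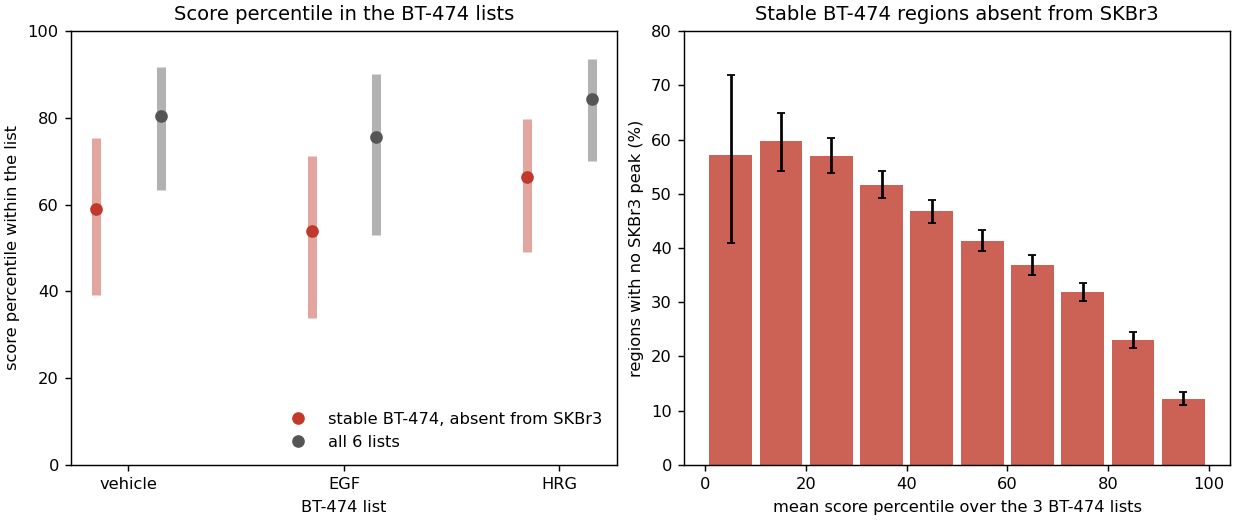
Left, score percentile within each BT-474 list for the BT-474 set (red) and the common regions (grey), with points for medians and bars from the lower to the upper quartile. Right, share of regions called in all 3 BT-474 lists that have no SKBr3 peak, in percent, by mean score percentile, with 95% Wilson intervals, which goes down to 12.1% in the strongest class.

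Since the rule asks for a peak in every BT-474 list, conditions can be compared by rank alone, and the ranks come from the scores of the lists that chose the members. The lists differ in length, with 32259 peaks on vehicle, 26832 on EGF and 41271 on HRG. The score percentile was higher on HRG than on vehicle at 4161 members and lower at 2356, with a median difference of 4.38 points, and higher on EGF at 2616 and lower at 3901, with a median of -3.11 points. In common regions 67.1% were higher on HRG and 33.0% on EGF, against 63.8% and 40.1% in the BT-474 set. With 1 library a condition these differences have no replicate check, and the part of list length in them was not tested. The largest rise in score percentile on HRG was in an intron of SGMS1, a sphingomyelin synthase, where the score was 50.1 on vehicle cells, 137 after EGF and 637 after HRG. An intronic member of CCNT2, a cyclin of the elongation factor P-TEFb, went from 57.0 on vehicle and 108 on EGF to 951 on HRG. The largest drop in percentile on HRG was in an intron of MYO18B, with 653 on vehicle, 90.6 on EGF and 52.2 on HRG, followed by a region near SLC24A3 with 721, 143 and 55.7. On EGF the member 50809 bp from FOSL2, which encodes a Fos family subunit of AP-1, went from 458 on vehicle to 53.1, with 284 on HRG. The largest rise in percentile on EGF was at an intergenic member whose nearest start, that of CDH6, lay 1015284 bp away, and which went from 51.8 on vehicle to 320 on EGF and 159 on HRG.

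Members were seldom at promoters. In all 169 of them, 2.59% (interval 2.23–3.01%), had their centre within 1 kb of the start of a protein-coding gene, against 14.7% (14.0–15.5%) of common regions and 15.0% (14.0–16.1%) of the SKBr3 set, with a background of 8.85%. The difference from common regions was -12.1 points (-13.0 to -11.3). In the 4 GC classes the promoter share was 1.53% against 5.32% of common regions, 2.50% against 5.44%, 2.49% against 9.63% and 9.98% against 29.2%. Introns held 2867 members, exons 81 (1.24%) and intergenic sequence 3400 (52.2%), and the median distance to the nearest start was 61655 bp, against 22764 bp in common regions and 18985 bp in the SKBr3 set.

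Among the promoter members, that of HOXC6, a homeobox gene of anterior-posterior patterning, at chr12:54379935-54385335 had scores of 2393 on vehicle, 1735 on EGF and 1966 on HRG and an AP-1 word in its window. It was the one member within 20 kb of HOXC6, HOXC8, HOXC9, HOXC10 and HOXC11 alike. FAM3B, which encodes a secreted cytokine-like protein, had 2827, 1169 and 1285 at a promoter with a GRHL word, and THSD4 had 1613, 989 and 1068, with an LRSKBr3 score of 58.8. A start of GREB1 had 1936, 772 and 3009. In all these the EGF score was the lowest of the 3, as it was in the list medians (168 on vehicle, 120 on EGF, 142 on HRG).

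Scores of 3100 or more in all 3 BT-474 lists were reached by 26 members, and no promoter was among them. A score of exactly 3100 was held by 990 vehicle, 534 EGF and 1156 HRG peaks. Peaks at that score are tied and cannot be ranked against each other. The first of them in genome order were an intronic region of PPP1R1C, an inhibitor subunit of protein phosphatase 1, a region in an intron of STXBP5L nearest to the start of POLQ, an intronic region of the cadherin gene CDH12, and intergenic regions nearest to ARSJ, IRX1, FOXQ1, MMUT, TPBG, MAN1A1 and ACTR3B. Of these 10, the ACTR3B region had the sole peak in a list of SKBr3 origin, with an LRSKBr3 score of 89.6, and FOXQ1, a forkhead gene, was nearest to its member at 21072 bp. The regions nearest to ACTR3B, SHH and PTPRN2 held an ERRE, and all 3 stood at 3100 in every BT-474 list.

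A member lay within 20 kb of a start of 1683 of 19794 protein-coding genes, a background of 8.5%, and 259 genes had 2 or more members. The common regions reached 21.3% of genes and the SKBr3 set 14.1%. Of the 1683 genes, 553 (32.9%) had no SKBr3 peak centred within 20 kb of a start, so at the others another site was called in SKBr3 cells. The 8 genes with the most members had 4 each, namely PDE4D, PSD3, GREB1, SVIL, RARA, CCDC178, ODAM and NDUFAF6.

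The oestrogen-responsive genes were reached by members more often than the gene background, with 10 of 36 genes (27.8%) against 8.5%. The same list had a common region within 20 kb of 14 of the 36 genes, where 21.3% of all genes had one. It had a region of the SKBr3 set within 20 kb of 7, where 14.1% of all genes had one. The list was thus above all genes in each of these sets, and the differences were not tested. Of the 10 genes, NPY1R, RARA and SIAH2 had no SKBr3 peak centred in range. GREB1, a coactivator of ERα and one of its classical targets, had 4 members. The strongest, at chr2:11670348-11676818, had scores of 1936 on vehicle, 772 on EGF and 3009 on HRG and held the ERE printed above at -900 bp from its centre, with a half-ERRE in the window. The next 2 had 1670, 795 and 1607 and 1673, 742 and 1757. The weakest, at chr2:11677458-11680727, had 835, 131 and 559, held an ERRE at -554 bp from its centre and had an LRSKBr3 peak of score 67.9. In the span of these members the SKBr3 vehicle list had 1 peak.

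SIAH2, a ubiquitin ligase induced by oestrogen, had 2 intronic members. That at chr3:150464166-150470724 had scores of 2170 on vehicle, 1388 on EGF and 3100 on HRG, and that at chr3:150473391-150480251 had 472, 214 and 903 and held the ERE printed above at -2292 bp from its centre. NPY1R, the neuropeptide Y receptor gene, had 1 member with scores of 94.9, 132 and 197, and its ERRE lay at the peak centre itself. RERG, a Ras-like growth inhibitor, had 3 weak members, of which that at chr12:15390665-15392708 had an ERRE 10 bp from the centre and scores of 153, 58.6 and 169. Members near AGR2, RET, SERPINA1, SUSD3 and XBP1 had vehicle scores from 217 to 688, and all 5 genes had an SKBr3 peak centred within range as well.

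RARA, the retinoic acid receptor α gene, had 4 members with scores on vehicle, EGF and HRG of 1186, 629 and 1156 upstream of the gene, where the ERRE printed above lay 488 bp from the centre, and of 321, 130 and 492, then 552, 306 and 365, then 1451, 449 and 510 in its introns. The last had a pSKBr3 peak of score 592. They lay in a stretch of 1542 kb, chr17:37159169-38701235, in which the SKBr3 lists had no peak at all. The same stretch held 12, 9 and 10 peaks on vehicle, EGF and HRG in BT-474 cells, 14 in pSKBr3 and 15 in LRSKBr3 cells. It also holds ERBB2, whose amplicon list had no gene with a member within 20 kb, and NR1D1, the clock repressor REV-ERBα. The promoter member of NR1D1 had scores of 275, 228 and 1697 and an AP-1 word, and a second member 11894 bp from its start had 2198, 747 and 1919. Absence from the SKBr3 lists here means only that no peak is listed, since peaks of both related lists lie in the stretch. Whether peaks were removed from the SKBr3 lists in amplified DNA is not given in the sources used here, and the lists hold no DNA copy number. The same limit holds for members that have both a pSKBr3 and an LRSKBr3 peak, among them some near PTPN1, DGLUCY, SLC9A8 and RNF139.

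Genes of the luminal lineage had members too. Of 27 luminal transcription factors 6 had one (22.2%), against 8.5% of all genes. A common region was near 15 of the 27, against 21.3% of all genes, so the list was above all genes there too. A region of the SKBr3 set was near 4, against 14.1% of all genes. With starts within 10 kb the count was 3, where 1043 of all 19794 genes had a member. ESR1, the ERα gene, had a promoter member with scores of 143 on vehicle, 154 on EGF and 66.6 on HRG and an intronic one with 124, 82.9 and 265. No SKBr3 or pSKBr3 peak lay in the 271 kb around them between the nearest SKBr3 peaks, and 5 LRSKBr3 peaks did. TBX3, a T-box transcriptional repressor, had 3 members. The highest in mean rank had 1880, 867 and 1251, and the highest on vehicle 2059, 161 and 291. In the span of these members the SKBr3 HRG, pSKBr3 and LRSKBr3 lists had 1 peak each, and an SKBr3 peak lay 313 bp before it. CEBPB had 1 member with 1050, 333 and 1203 and an LRSKBr3 score of 613. Among 25 annotated luminal epithelial markers 4 had a member (16%), namely AGR2, CDH1, ESRP1 and KRT19, and among 30 basal and mesenchymal markers 5 did (16.7%), namely CDH2, CDH3, KRT6B, LAMA3 and SNAI1, a count that was 3 within 10 kb.

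CDH1 and CDH3, which encode E-cadherin and P-cadherin and are neighbours, shared a run of 8 members with gaps of at most 50 kb, chr16:68669472-68822393. The vehicle scores in the run ran between 169 and 1361, the EGF scores between 65.6 and 432 and the HRG scores between 211 and 1180. The highest on vehicle was an intronic member of CDH3 with 1361, 428 and 1070, and the member 2674 bp from the start of CDH1 had 526, 432 and 1180. None of the 5 lists of SKBr3 origin had a peak in the run. The nearest SKBr3 peaks were 143709 bp before and 163546 bp after it, and the 460 kb between them held 1 LRSKBr3 and no pSKBr3 peak, against 13, 10 and 15 in the BT-474 lists. The lists hold no DNA copy number, so a change in DNA copy and a lack of binding in SKBr3 cells cannot be told apart here.

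Metabolic genes are the best known ERRα targets, and their lists are read against the 8.5% of all genes with a member. Of 80 respiratory chain subunit genes 4 had one (5%) and 55 had a common region, and of 32 genes of the TCA cycle and pyruvate entry 1 had one and 23 a common region. For fatty acid oxidation the counts were 2 (5.88%) and 12 of 34 genes, for glycolysis and glucose transport 1 and 17 of 34, and for glutathione and antioxidant genes 4 (9.76%) and 20 of 41. With so few genes a list, the glutathione and fatty acid oxidation shares are near that of all genes. The member at the promoter of NDUFA5, a complex I subunit, had scores of 396, 230 and 205 in BT-474 cells and 1107 in pSKBr3. The one near COX6B1, a subunit of cytochrome c oxidase, had 278, 238 and 167, an ERRE in its window and an LRSKBr3 score of 110. NFE2L2, the NRF2 gene, had 336, 339 and 872.

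Among receptors, 6 of 54 receptor tyrosine kinases outside the ERBB family had a member (11.1%, against 8.5% of all genes), with 14 near a common region, and 1 of 15 ERBB receptors and ligands did. EPHB3 had 1755, 876 and 907 and an LRSKBr3 score of 103. MET, the hepatocyte growth factor receptor gene, had intronic members with 240, 116 and 1253 and with 351, 204 and 121, so that the first was highest on HRG and the second on vehicle. ERBB4 had 1 with 52.6, 52.7 and 240. Of 45 nuclear receptor genes 6 had a member (13.3%), and of 16 ERR genes and coregulators 4, among them ESRRB with 1002, 548 and 622 and ESRRG with 585, 355 and 351 at the stronger of 2. Integrins had 2 of 26 (ITGA6 and ITGA9) and AP-1 and immediate early genes 3 of 30 (DUSP1, DUSP6 and KLF4), near the share of all genes, and none of these 3 had a member within 10 kb, while the ERBB2 amplicon list had none of 16, the list of the 17q23 region 1 of 20 (CA4) and that of the 20q13 region 1 of 24 (PTPN1).

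The members were spread unevenly over the chromosomes. On chromosome 8, 607 of 985 stable BT-474 regions had no SKBr3 peak, 61.6% (interval 58.5–64.6%), on chromosome 18 291 of 557 (52.2%, 48.1–56.4%), and on chromosome X 227 of 480 (47.3%, 42.9–51.8%). The lowest shares were on chromosome 19, with 58 of 371 (15.6%, 12.3–19.7%), and on chromosome 1, with 354 of 1626 (21.8%, 19.8–23.8%). Without chromosome 8 the share was 32.9% (32.2–33.6%).

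**Figure D5:**
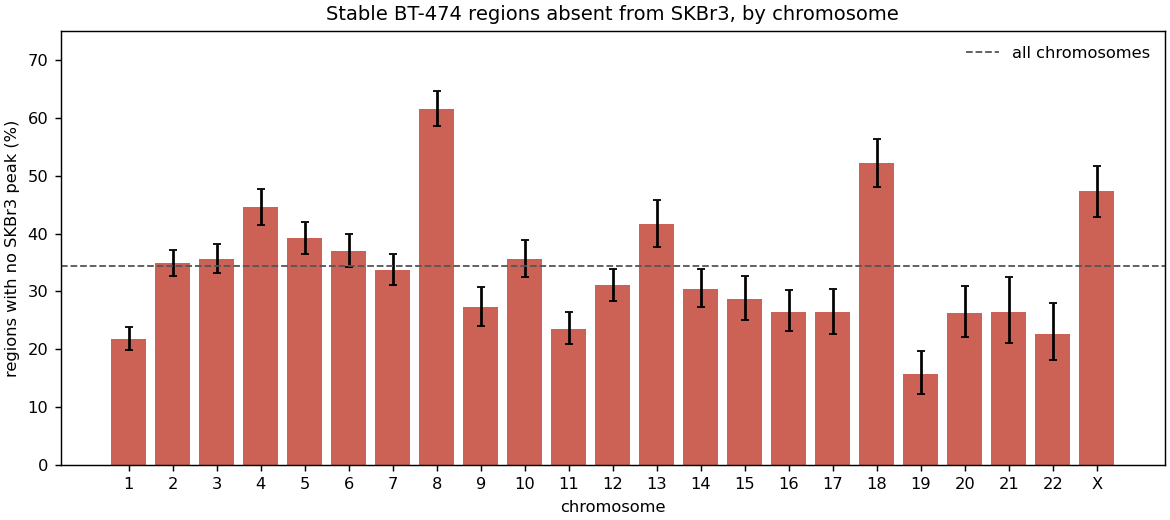
Share of regions called in all 3 BT-474 lists that have no SKBr3 peak, in percent, by chromosome, with 95% Wilson intervals. The dashed line is the share over all chromosomes, 34.4%, and chromosome 8 stands highest at 61.6%.

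Some members lay in long stretches without any SKBr3 peak, where a stable BT-474 region is a member by the rule itself. The stretch with the most members was on chromosome 8, chr8:115652655-125679791, where 10.0 Mb held no SKBr3 peak, 117 members, 196, 189 and 269 peaks in the vehicle, EGF and HRG lists of BT-474 cells, 1 pSKBr3 peak and 6 LRSKBr3 peaks. The next was a stretch of 5.71 Mb on chromosome 18 with 30 members, no pSKBr3 peak and 1 LRSKBr3 peak. Others with 16 to 26 members were on chromosomes 4, 7, 8 and 18. The median distance from a member to the nearest SKBr3 peak was 30926 bp. It was over 100 kb at 1706 members (26.2%) and over 1 Mb at 187 (2.87%), of which 117 were on chromosome 8 and 39 on chromosome 18. Members up to 10 kb from an SKBr3 peak had an LRSKBr3 peak in 16.0% (interval 14.3–17.9%), those at 10 to 100 kb in 10.5% (9.48–11.6%) and those at 100 kb to 1 Mb in 5.27% (4.25–6.51%). The ERRE share was 3.17% (2.43–4.14%), 5.74% (4.98–6.60%) and 6.98% (5.80–8.37%) in the same order, and the forkhead shares were 9.76%, 9.84% and 9.08%. Over 1 Mb away, with 187 members, the LRSKBr3 share was 0.535% (0.0945–2.97%), the ERRE share 5.88% (3.32–10.2%) and the forkhead share 6.95% (4.11–11.5%). A change in DNA copy and a lack of binding in SKBr3 cells cannot be told apart from peak lists.

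Chromosome 8 also held several of the strongest promoter members. TPD52, a gene often amplified in breast cancer, had scores of 3100 on vehicle, 1849 on EGF and 3100 on HRG at its promoter. The shared promoter of TATDN1 and the complex I subunit gene NDUFB9 had 3100, 2145 and 2486. DEPTOR, an inhibitor of mTOR, had 1370, 1328 and 2338, TBC1D31 had 2594, 1654 and 2927, and the 2,4-dienoyl-CoA reductase gene DECR1 had 2022, 666 and 1335. None of these 5 promoters had a pSKBr3 or LRSKBr3 peak, whereas that of SYBU, with 1913, 1066 and 2288 in BT-474 cells, had a pSKBr3 peak of score 78.2. The promoters of DEPTOR, TBC1D31 and TATDN1 lie in the 10.0 Mb stretch without an SKBr3 peak. That of TPD52 lies in a stretch of 2.13 Mb with no peak in any list of SKBr3 origin. In such stretches a change in DNA copy and a lack of binding cannot be told apart. At RNF139 the member 1104 bp from a start had 793, 454 and 1000 in BT-474 cells but 1611 in pSKBr3 and 923 in LRSKBr3 cells. Between TNFRSF11B and its neighbours a region went from 70.3 on vehicle and 243 on EGF to 2548 on HRG.

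The run with the most members lay beyond MYC. With gaps of at most 50 kb, 11 members lay in chr8:128802925-128966985, where vehicle scores ranged from 168 to 2260, EGF scores from 55.4 to 1987 and HRG scores from 92.6 to 2734. The strongest, at chr8:128881326-128891522, had 2260, 1987 and 2734, and the adjacent member had 705 on vehicle, 55.4 on EGF and 284 on HRG, the largest drop in score percentile on EGF of any member. The run held no SKBr3 or pSKBr3 peak and 1 LRSKBr3 peak, with an SKBr3 peak 2939 bp before it and the next 135495 bp after it. Runs of 9 members near KLF14 and MKLN1 and of 8 near HIPK2 and in NPAS3 followed. Most members were alone, with 4015 in no run.

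The rule has 2 edges. Inside it, the member nearest COX18 ended 1 bp from an SKBr3 peak and that nearest BRINP2 6 bp from one, and in all 76 members had an SKBr3 peak within 500 bp. Outside it, the stable BT-474 regions nearest RTN4RL1, ZSWIM5 and ARHGAP17 overlapped an SKBr3 peak by 5, 15 and 21 bp. At the edge in score, the weakest member, nearest ZNF704, reached 52.1 at most in any BT-474 list, close to the lowest score of 50 in the lists.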

How the data were processed

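Peak lists were used as deposited by the authors. Per the labels the reads were placed on hg19, which is GRCh37, and the processing notes name BWA 0.5.9 and SAMtools 0.1.18. The deposited score of each peak was taken to be that of MACS, a log-scaled P value whose lowest value of 50 stands for 1e-05. The peaks of all lists carry MACS names and share this minimum, but per the file headers the 3 SKBr3 lists, and no other, also name FindPeaks, and what part that program had is not given in the sources used here. The score depends on depth, so scores were ranked within each list. The centre of a region was the median, over lists, of the centre of its strongest peak. Words were sought in windows of 201 bp around it, and genes were 19794 protein-coding genes. Shares have Wilson and differences Newcombe intervals at 95%. Python 3.11.15, numpy 2.4.6, pysam 0.24.0 and samtools 1.23.1 were used, and the steps were tested on simulated data. Members and lists were chosen with earlier results of these data known.

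Regions were named by rule, as the strongest members in all, at promoters, with each word and with a pSKBr3 or LRSKBr3 peak, the widest (not described), those whose rank moved most on EGF or HRG, the runs and genes with most members, and up to 4 members a gene list. A few items are not reported here. Further list genes and IPO5 were named after their values were seen, and the classes of GC, strength and distance and the stretches around genes were added then.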

Additional observations from a re-analysis of the deposited data

How the results depend on the processing

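The number of members stayed within 1.5 times 6517 with scores of at least 80 (5240) or 100 (4733), lists of equal size (6069), no SKBr3 peak within 500 or 2000 bp (6441 and 6102) or centres within 500 bp (6279). It was 17703 with the vehicle lists alone, and from 7121 to 9953 with 1 BT-474 list not required, the highest without the EGF list. With scores of at least 100, the shares were 2.45% for pSKBr3, 9.04% for LRSKBr3, 21.5% for the half-ERRE and 8.60% for forkhead. With 250 bp to each side of the centre they were 8.47% for the ERRE, 32.9% for the half-ERRE, 12.2% for AP-1, 18.8% for forkhead and 12.95% for GATA, since the window is longer. Counting single list and word results too, 39 stayed and 18 moved with scores of at least 100. Promoters were 3.38% when a start inside the region counted, and 1043 genes had a member within 10 kb. Leaving out chromosome 8, an alternative chosen after seeing the data, kept 5910 members and left 19 of 20 results within their main interval or count, the exception being the NRF1 word, whose 1 member lay on that chromosome. No paired analysis was possible because each condition has 1 list per line. Depth is unknown, and no list gives a spread between cultures.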
